A study of Mus musculus with 6 samples.

Results

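The 10 genes analysed here are *Arntl*, *Clock*, *Per1*, *Per2*, *Per3*, *Cry1*, *Nr1d1*, *Nr1d2*, *Dbp* and *Tef* of the circadian clock. They were chosen by name, and all 10 were found through their Ensembl identifiers among the 31053 genes of the count table. The samples are bulk RNA sequencing libraries of cerebellum, 2 labelled WT and 3 labelled KIKO. KIKO (knock-in knock-out) mice are a model of Friedreich's ataxia, and the WT mice were C57BL/6 littermates. The paper describes bulk sequencing of CD45+/CD11b+ microglia and macrophages, sorted from groups of 4 mice at the age of 6 mo. It also describes transcriptomes of cultured cerebellar microglia with butyrate, and of CD11b+ cells from mice fed butyrate. To which of these experiments the libraries belong is not stated in the labels. The labels name the cerebellum and the genotype, without a sort, an age, a sex or a time of day. The paper kept its mice on a light-dark cycle, and the hour at which the cerebellum was taken is not given in the sources used here. All samples analysed here were untreated as far as the labels say. A WT sample numbered 3 in the labels was not analysed here.

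The circadian clock is a loop of transcription factors that runs in nearly every cell, cerebellar neurons and microglia included. ARNTL (also called BMAL1) and CLOCK bind E-boxes and switch on the Per, Cry, Nr1d, *Dbp* and *Tef* genes, and the PER and CRY proteins then block ARNTL and CLOCK. NR1D1 and NR1D2 (the REV-ERBs) repress *Arntl* in turn, so that over a day *Arntl* transcripts are high when those of *Per2*, *Nr1d1* and *Dbp* are low, and the reverse.

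The libraries held between 1013107 and 1351339 counts, and a signal of 3 counts corresponded to between 2.28 and 3.04 CPM, which are counts divided by the library total after scaling with TMM factors. This floor covers counting error only. All 10 clock genes passed the filter on low counts, as did 10889 genes in all. KIKO replicate 2 stood apart from the other libraries. Its log2 values gave r between 0.676 and 0.752 with theirs over the tested genes, while the remaining 4 libraries reached 0.887 to 0.933 with each other. Genes are not independent replicates. Its summed level of 7 microglial markers was 9463 CPM, against 3259 to 4894 CPM in the other libraries, and its 5 oligodendrocyte markers summed to 18660 CPM against 4449 to 11695 CPM. The 5 choroid plexus markers summed to between 6627 and 14177 CPM and the 6 granule neuron markers to between 1522 and 2277 CPM, so transcripts of cells other than microglia were present in each library. None of these 23 markers was at 0 in any library. Of 4 T cell markers, 2 (*Cd3e* and *Cd8a*) had 0 counts throughout, and the list summed to at most 3.04 CPM.

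No clock gene differed between KIKO and WT libraries by the paper's thresholds, which ask for an absolute log2 fold change over 0.75 together with an unadjusted p below 0.05. With edgeR's quasi-likelihood test, 0 of the 10 genes passed, 0 had an unadjusted p under 0.05 and the adjusted p (Benjamini-Hochberg) was 1 for each. DESeq2's Wald test also gave 0 on all 3 criteria. Of all genes tested, 1.20% passed the thresholds with edgeR and 1.25% with DESeq2. A total of 6 genes had positive and 4 had negative log2 fold changes, with a median of 0.27 over the 10 genes and 0.022 over all genes tested. The levels of the WT libraries were separate from those of the KIKO libraries for 4 of the 10 genes (*Arntl* and *Per1* lower, *Per3* and *Tef* higher in KIKO), as was the case for 16.7% of all genes (8.20% higher and 8.51% lower in KIKO). Without KIKO replicate 2, the same count was 4 of 10 and 38.5% of all genes. Without KIKO replicate 3, it was 7 of 10 and 27.9% of all genes. With the replicate number of the labels as a block, *Arntl* and *Per2* passed the thresholds, where 2.49% of all genes did. A change in the number of cells of a type and a change in RNA per cell cannot be told apart in these bulk libraries.

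**Figure D1:**
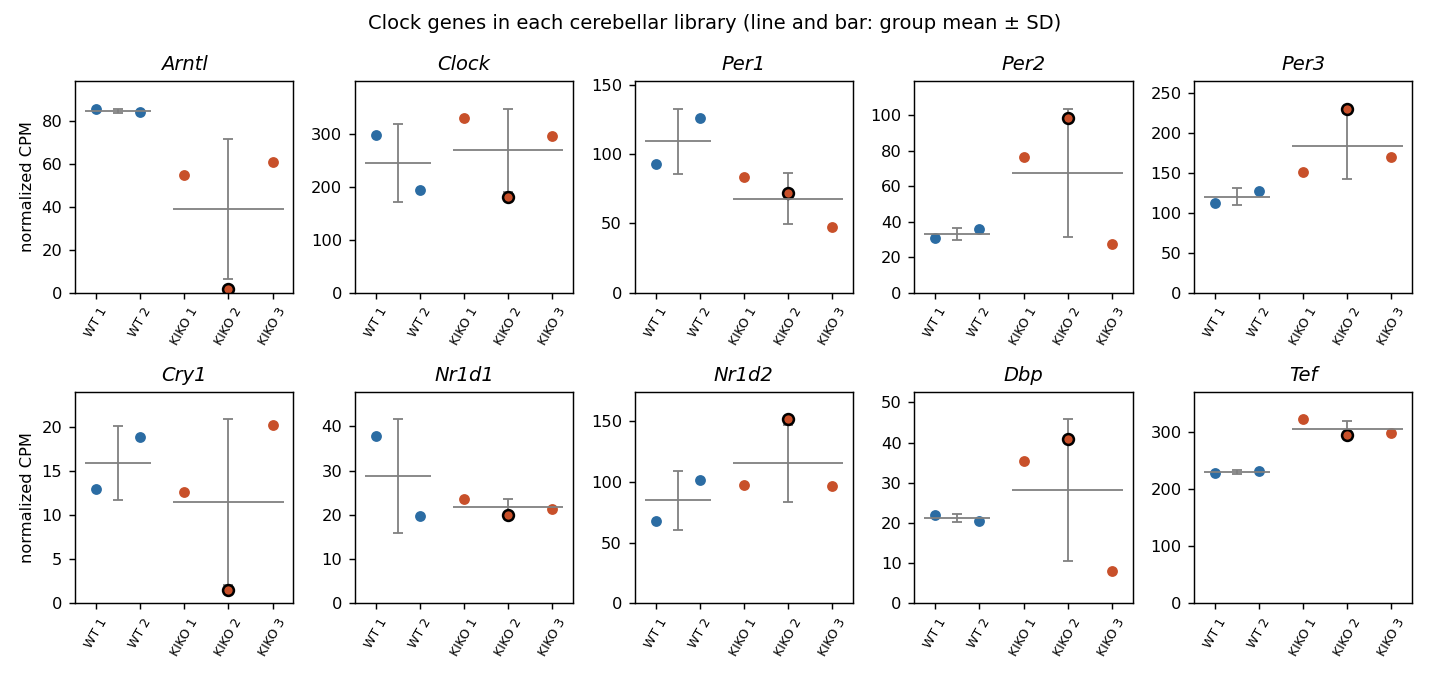
Normalized CPM of the 10 clock genes (y axis, from 0) in each library (x axis), with WT in blue, KIKO in orange and KIKO replicate 2 circled. Lines and bars are group means ± SD (n = 2 and n = 3). *Arntl* and *Cry1* were at 1.55 CPM in KIKO replicate 2, and the WT and KIKO points did not overlap for *Arntl*, *Per1*, *Per3* and *Tef*.

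The activators were examined first. *Arntl* (chromosome 7, 113207465 to 113314126, plus strand, GRCm38) encodes the DNA-binding partner of CLOCK. It had 85.7 and 84.2 CPM in the WT libraries and 55.2, 1.55 and 60.9 CPM in KIKO replicates 1, 2 and 3. Every KIKO library was thus below both WT libraries, and KIKO replicate 2 held 2 counts of *Arntl* where the other libraries held 60 to 111. The means were 84.9 ± 1.04 CPM (SD, n = 2) in WT and 39.2 ± 32.7 CPM (SD, n = 3) in KIKO libraries. The log2 fold change was −1.12 (standard error 0.94, 95% interval −3.27 to 1.02), which the spread between replicates covered. Without KIKO replicate 2, it was −0.56 (interval −1.20 to 0.085, edgeR unadjusted p = 0.0864, adjusted p = 0.67). *Arntl* passed the thresholds with the replicate block, at −2.46 (edgeR unadjusted p = 0.0304), and when all genes with at least 1 count were fitted, at −1.12 (edgeR unadjusted p = 0.0254), but its adjusted p was 0.989 and 1 there. The exons of *Arntl* share 33 bases with an antisense gene, *Gm45355*, which had 0 counts.

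*Clock* (chromosome 5, 76209868 to 76304792, minus strand) encodes the partner of ARNTL and is known to vary less over the day than *Arntl*. Its levels were 297 and 193 CPM in WT and 330.4, 180.0 and 295 CPM in KIKO libraries. The lowest and the highest value were both from KIKO libraries, with the WT values between them. The log2 fold change was 0.13 (standard error 0.42, 95% interval −0.82 to 1.09), and it was −0.15 without WT replicate 2 and −0.042 without KIKO replicate 1. *Clock* therefore had no direction that held across these libraries.

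The promoter of *Arntl* is shown because it carries the elements through which the REV-ERBs and their activating counterparts, the RORs, act on it. The RefSeq window (GRCm38.p6, chr7:113207261-113207560, plus strand, spanning a transcript start) holds the ROR element GTAGGTNA at chr7:113207504-113207511 and chr7:113207540-113207547, in capitals:
Arntl promoter: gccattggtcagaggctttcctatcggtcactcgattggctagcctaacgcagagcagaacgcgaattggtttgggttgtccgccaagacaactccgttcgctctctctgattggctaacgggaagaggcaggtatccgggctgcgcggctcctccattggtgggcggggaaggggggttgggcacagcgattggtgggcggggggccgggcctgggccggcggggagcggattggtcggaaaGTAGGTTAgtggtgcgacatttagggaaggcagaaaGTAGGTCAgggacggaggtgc
Of 32851 such windows over all genes, 2.14% hold this element on either strand. *Arntl* was the 1 clock gene of the 9 with a window whose window held it.

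*Cry1* (chromosome 10, 85131700 to 85185064, minus strand) encodes a cryptochrome, the main repressor of ARNTL and CLOCK, and its transcripts are known to peak later than those of the Per genes. It was the least abundant of the 10 genes, with 12.9 and 19.0 CPM in WT and 12.6, 1.55 and 20.3 CPM in KIKO libraries. As for *Arntl*, KIKO replicate 2 held 2 counts, where the other libraries held 13 to 25. The highest value was also from a KIKO library. The log2 fold change of −0.49 (standard error 0.92, 95% interval −2.60 to 1.61) rested on that library and was 0.012 (interval −1.18 to 1.21) without it.

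Of the 3 Period genes, none passed the thresholds. *Per1* (chromosome 11, 69095217 to 69109960, plus strand), a repressor that is also induced acutely by neuronal activity and glucocorticoids, had 92.6 and 126 CPM in WT and 83.6, 71.9 and 47.7 CPM in KIKO libraries. All 3 KIKO values were below both WT values, by a log2 fold change of −0.69 (standard error 0.40, 95% interval −1.59 to 0.22). Without KIKO replicate 2, the log2 fold change was −0.73 (interval −1.39 to −0.079, edgeR unadjusted p = 0.0294, adjusted p = 0.55). This was just short of the threshold of 0.75 in size, so *Per1* did not pass. In that fit, 6.45% of all genes passed both thresholds and 8.21% had an unadjusted p under 0.05. With sample quality weights in limma voom, *Per1* had an unadjusted p under 0.05 and a log2 fold change of −0.71. There, 519 genes in all passed both thresholds, and the lowest adjusted p (limma) among the clock genes was 0.825. KIKO replicate 2 had the least weight, so this fit is not separate from the fit without that library.

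*Per2* (chromosome 1, 91415982 to 91459324, minus strand), the Period gene on which the daily rhythm depends most, had 30.9 and 35.6 CPM in WT and 76.5, 98.1 and 27.4 CPM in KIKO libraries. Replicates 1 and 2 of KIKO were above both WT libraries and replicate 3 was below them, so the groups overlapped. The means were 33.3 ± 3.37 CPM (SD, n = 2) and 67.3 ± 36.2 CPM (SD, n = 3), which gave a log2 fold change of 1.02 (standard error 0.57, 95% interval −0.28 to 2.32). *Per2* passed the thresholds without KIKO replicate 3 (log2 fold change 1.39, edgeR unadjusted p = 0.0218, adjusted p = 1), where 1.17% of all genes did, and with the replicate block (1.38, edgeR unadjusted p = 0.0225, adjusted p = 0.989). Without KIKO replicate 2, it was 0.65 (interval −0.20 to 1.51).

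*Per3* (chromosome 4, 151003652 to 151044665, minus strand), a Period gene that is not needed for the rhythm itself, had 113 and 127 CPM in WT and 151, 230.3 and 169 CPM in KIKO libraries. Each KIKO library was above both WT libraries. The means were 120.0 ± 10.5 CPM (SD, n = 2) and 183 ± 41.6 CPM (SD, n = 3), with a log2 fold change of 0.61 (standard error 0.37, 95% interval −0.24 to 1.46). Without KIKO replicate 2, this was 0.41 (interval −0.15 to 0.96).

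The promoters of *Cry1* and *Per3* are shown because their elements differ. The window of *Cry1* (chr10:85185005-85185304, minus strand, GRCm38.p6, RefSeq) holds the E-box CACGTG at chr10:85185109-85185114 and the E'-box CACGTT, read on the other strand, at chr10:85185128-85185133. The window of *Per3* (chr4:151044616-151044915, minus strand) holds the D-box TTANGTAA, the element bound by DBP and TEF, at chr4:151044816-151044823 and chr4:151044863-151044870. The elements are in capitals:
Cry1 promoter: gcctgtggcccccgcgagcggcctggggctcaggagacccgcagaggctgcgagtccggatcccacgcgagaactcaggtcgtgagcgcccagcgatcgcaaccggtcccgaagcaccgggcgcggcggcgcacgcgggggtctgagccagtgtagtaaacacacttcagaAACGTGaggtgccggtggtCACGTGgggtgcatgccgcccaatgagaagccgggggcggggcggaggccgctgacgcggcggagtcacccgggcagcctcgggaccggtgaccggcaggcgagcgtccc
Per3 promoter: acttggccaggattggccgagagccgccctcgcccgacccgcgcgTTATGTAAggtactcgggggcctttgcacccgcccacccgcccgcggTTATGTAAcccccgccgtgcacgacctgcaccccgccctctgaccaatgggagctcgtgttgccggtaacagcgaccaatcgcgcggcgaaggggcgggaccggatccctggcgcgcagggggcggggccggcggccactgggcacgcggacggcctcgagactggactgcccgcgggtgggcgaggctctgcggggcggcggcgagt
Of all windows, 7.15% hold the E-box, 4.68% the E'-box and 2.32% the D-box on either strand. Among the 9 clock genes with a window, the E-box was found in those of *Per1*, *Cry1* and *Tef*, the E'-box in those of *Cry1* and *Nr1d1*, the D-box in that of *Per3*, and the cAMP element TGACGTCA, held by 1.79% of all windows, in 0. *Per2* had no window in the table. None of the sites found overlapped another.

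The REV-ERB genes encode nuclear receptors that bind heme and repress *Arntl*. *Nr1d1* (chromosome 11, 98767932 to 98775333, minus strand) had 37.9 and 19.7 CPM in WT and 23.7, 20.1 and 21.3 CPM in KIKO libraries. The 3 KIKO values lay close together between the 2 WT values, and the log2 fold change was −0.40 (standard error 0.52, 95% interval −1.58 to 0.78) and 0.13 without WT replicate 1. Its exons share 263 bases with *Thra* on the opposite strand. *Thra* had 344 to 594 counts per library against 21 to 38 of *Nr1d1*, and since the strand setting of the counting is not given in the sources used here, reads from the shared bases cannot be assigned with certainty.

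*Nr1d2* (chromosome 14, 18204054 to 18239127, minus strand) had 67.7 and 102 CPM in WT and 97.8, 151 and 96.4 CPM in KIKO libraries. KIKO replicate 2 was the highest, and the other KIKO libraries lay below WT replicate 2. The log2 fold change was 0.44 (standard error 0.40, 95% interval −0.48 to 1.36), and 0.18 (interval −0.43 to 0.80) without that library. The library with the fewest counts of *Arntl* thus had the most of *Nr1d2*, but not of *Nr1d1*.

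*Dbp* and *Tef* encode related transcription factors with a PAR bZIP domain that carry the rhythm to output genes through D-boxes. *Dbp* (chromosome 7, 45705088 to 45710203, plus strand), whose transcripts are known for a wide daily swing, had 21.9 and 20.5 CPM in WT and 35.5, 41.0 and 8.12 CPM in KIKO libraries. As for *Per2*, KIKO replicates 1 and 2 were above both WT libraries and replicate 3 was below them. The SD was 1.02 CPM in WT (n = 2) and 17.6 CPM in KIKO libraries (n = 3), and the log2 fold change was 0.42 (standard error 0.69, 95% interval −1.16 to 2.0). Without KIKO replicate 2, it was 0.073 (interval −1.06 to 1.20). *Dbp* shares 539 exonic bases with *Sphk2* on the opposite strand, which had 45 to 59 counts per library, against 8 to 53 of *Dbp*.

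*Tef* (chromosome 15, 81802421 to 81826863, plus strand) was the most even of the 10 genes. It had 227 and 232 CPM in WT and 322, 295 and 297 CPM in KIKO libraries, so each KIKO library was above both WT libraries. The means were 229.6 ± 3.52 CPM (SD, n = 2) and 305 ± 14.8 CPM (SD, n = 3), which gave a log2 fold change of 0.41 (standard error 0.34, 95% interval −0.38 to 1.20). Without any 1 library, the log2 fold change stayed between 0.37 and 0.43. Although the 2 groups were separated by more than their SDs, the edgeR test, which draws its estimate of spread from all genes, gave an unadjusted p of 0.268, and of 0.0992 without KIKO replicate 2. *Tef* shares 193 exonic bases with an antisense gene, *Gm17597*, which had at most 2 counts.

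**Figure D2:**
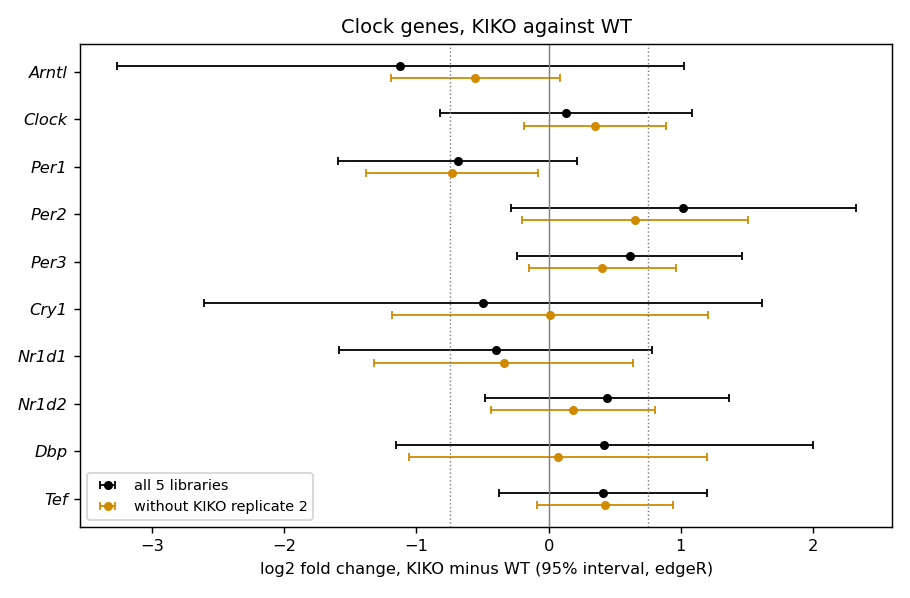
Log2 fold change of each clock gene (x axis, KIKO minus WT, edgeR) with its 95% interval, from all 5 libraries (black) and without KIKO replicate 2 (orange). Dotted lines mark 0.75 in either direction. All intervals from 5 libraries include 0, and that of *Per1* excludes 0 without KIKO replicate 2 (−1.39 to −0.079).

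Per kilobase of exon, the mean level over the 5 libraries was highest for *Tef*, at 34.9 ± 5.40 CPM per kilobase (SD, n = 5). It was followed by *Nr1d2* (19.0), *Clock* (18.9), *Per3* (16.5) and *Per1* (15.0 CPM per kilobase), and then by *Per2* (9.17), *Dbp* (8.48), *Nr1d1* (7.97), *Arntl* (7.64) and *Cry1* (3.97 CPM per kilobase). Apart from *Tef* and *Nr1d2*, neighbours in this order differed by less than the larger of their SDs, except that *Per1* and *Per2* differed by more. With KIKO replicate 2 left out, *Arntl* stood at 9.50 ± 2.09 CPM per kilobase (SD, n = 4) and moved from the 9th to the 6th place, above *Nr1d1* (8.33), *Per2* (7.28) and *Dbp* (7.18 CPM per kilobase), by less than the larger SD in each case. The paper names a digital mRNA kit and the labels a stranded kit, and in a kit that reads transcript ends the counts would not scale with length.

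KIKO replicate 2 was set against the other 4 libraries as a description of that library. It was the lowest of the 5 libraries for *Arntl*, *Clock* and *Cry1* and the highest for *Per2*, *Per3*, *Nr1d2* and *Dbp*, where it was the lowest for 37.1% and the highest for 33.9% of all tested genes. These 7 of 10 genes compare with 71.0% of all tested genes for which this library was the highest or the lowest. Its level was more than 2 times below the lowest other library for *Arntl* and *Cry1*, as it was for 16.9% of all genes. In frequency, extreme values of the clock genes in this library were therefore close to those of all genes.

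The size of the deviation was large for *Arntl*. Its level in KIKO replicate 2 was 0.0216 times that of the other 4 libraries (95% exact interval 0.00261 to 0.0787, counting error only), a log2 difference of −4.35 with 2 CPM added to each value. By this difference, *Arntl* was the 33rd lowest of the 10889 genes. *Cry1* was at 0.0956 times the others (interval 0.0114 to 0.358) and 664th lowest. In the other direction, *Per2* was 2.22 times (interval 1.77 to 2.79), *Dbp* 1.84 times (1.29 to 2.58), *Per3* 1.65 times (1.43 to 1.90) and *Nr1d2* 1.65 times (1.38 to 1.95) the other libraries. These 4 lay within the upper part of the distribution of all genes, with 89.1%, 83.1%, 74.9% and 75.3% of genes below them. *Clock* was at 0.652 times the others (interval 0.565 to 0.751), with 32.4% of genes below it. *Per1* (0.798 times), *Nr1d1* (0.799 times) and *Tef* (1.09 times) had intervals that included 1. The summed microglial, oligodendrocyte and choroid plexus markers were also highest in this library (6 of 7, 3 of 5 and 3 of 5 markers were highest there). Of the oligodendrocyte markers, 1 was the lowest there. The sums of mural cell, fibroblast and red blood cell markers were highest there too, and those of the other cell types searched were highest in another library. Of all tested genes, 33.9% were highest in KIKO replicate 2. The part of these cell types in the values above was not tested.

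**Figure D3:**
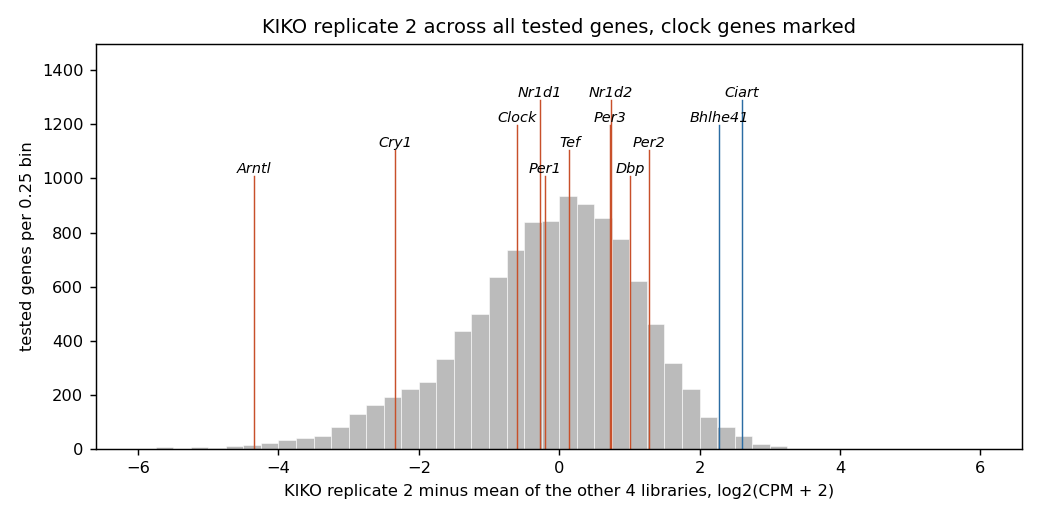
Number of tested genes (y axis) by the log2(CPM + 2) of KIKO replicate 2 minus the mean of the other 4 libraries (x axis, bins of 0.25). Orange lines mark the 10 clock genes and blue lines *Ciart* and *Bhlhe41*. *Arntl*, at −4.35, lies in the far lower tail, and most clock genes lie within the bulk.

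Within a library, the counts of *Arntl* can be set beside those of a gene that it activates without any scaling between libraries. These shares were chosen after the values were seen and are given for all 8 such genes of the 10, so no test is attached to them. *Arntl* made up 73.5% of the counts of *Arntl* and *Per2* in WT replicate 1 (95% exact binomial interval 64.5 to 81.2) and 70.3% in WT replicate 2 (62.5 to 77.3). In KIKO libraries it was 41.9% in replicate 1 (34.3 to 49.8), 1.55% in replicate 2 (0.188 to 5.49) and 69.0% in replicate 3 (58.1 to 78.5). KIKO replicate 3 thus lay with the WT libraries, KIKO replicate 1 lay below them and KIKO replicate 2 was near 0. Beside *Dbp*, the share in KIKO replicate 3 was the highest of the 5 libraries, with 79.6% and 80.4% in WT and 60.9%, 3.64% and 88.2% in KIKO replicates 1, 2 and 3. Beside *Tef* it was 27.4% and 26.6% in WT and 14.6%, 0.521% and 17.0% in KIKO libraries, and beside *Per3* 43.2% and 39.8% against 26.8%, 0.667% and 26.4%. For *Tef* and *Per3*, the intervals of the WT libraries lay above those of all 3 KIKO libraries. That order of the libraries was given in advance, since *Arntl* was lower and *Tef* and *Per3* were higher in each KIKO library. The shares of KIKO replicate 2 all reuse the same 2 counts of *Arntl*, so they are not separate observations. Beside *Nr1d2*, the WT shares of 55.8% and 45.3% were also above the KIKO shares of 36.1%, 1.01% and 38.7%, but the interval of WT replicate 2 (39.0 to 51.8) overlapped that of KIKO replicate 3 (31.0 to 46.9). Beside the other 3 genes, the order of the libraries differed. The share beside *Per1* was 48.0% and 40.1% in WT and 39.8%, 2.11% and 56.1% in KIKO replicates 1, 2 and 3, and beside *Nr1d1* it was 69.4% and 81.0% against 70.0%, 7.14% and 74.1%. Beside *Cry1* it was 86.9% and 81.6% in WT and 81.4%, 50% and 75% in KIKO, where the value of KIKO replicate 2 rests on 4 counts (interval 6.76 to 93.2). All these intervals cover counting error within a library only and not the spread between samples. Since reads of amplified molecules are not independent, the intervals may understate even the counting error.

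**Figure D4:**
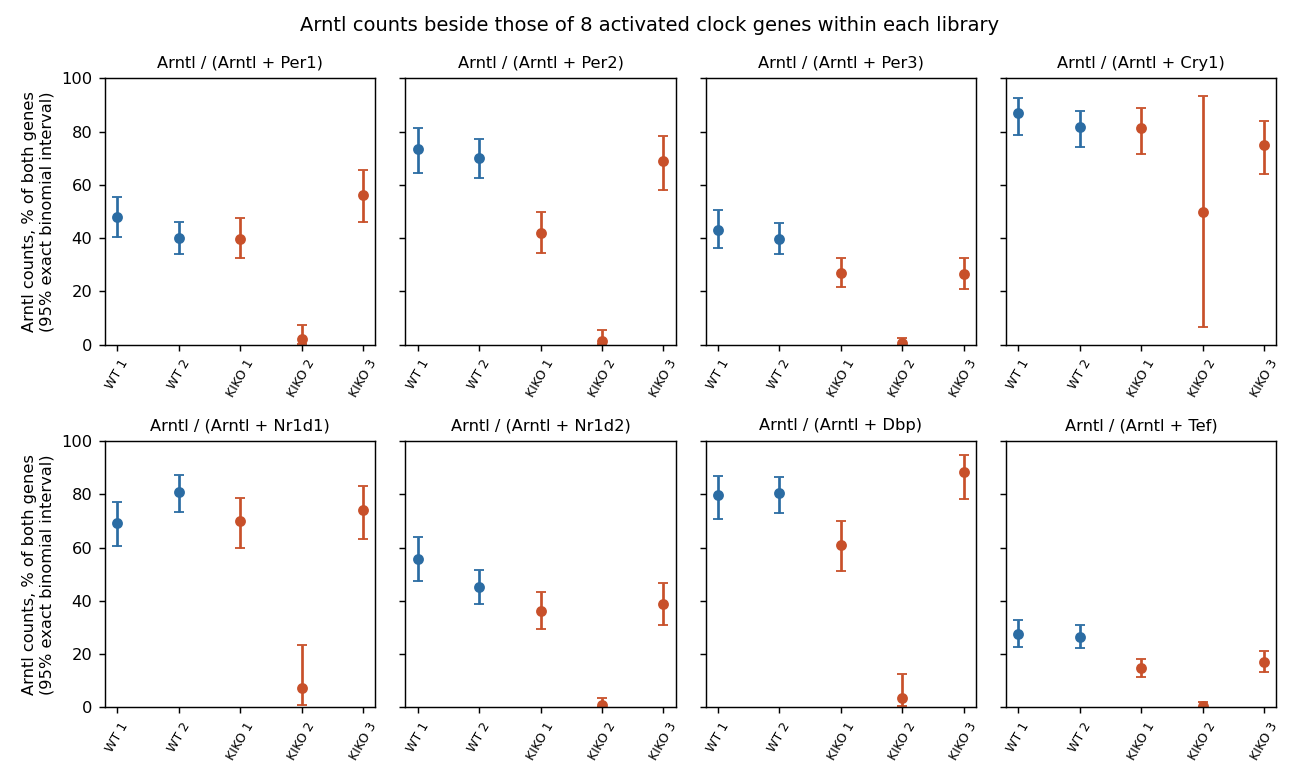
*Arntl* counts as a percentage of the counts of *Arntl* and a second clock gene (y axis, 0 to 100) in each library (x axis), with 95% exact binomial intervals. WT is in blue and KIKO in orange. KIKO replicate 2 lies between 0.521% and 7.14% for each gene except *Cry1*, where it is at 2 of 4 counts. Its points all reuse the same 2 counts of *Arntl*.

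KIKO replicates 1 and 3 were the most similar pair of libraries (r = 0.933 across tested genes), and the median absolute difference between them over the tested genes was 0.33 on the log2 scale. Among the clock genes, *Dbp*, *Per2*, *Per1* and *Cry1* differed by more and the others by less. By the definition of a median, as many of all tested genes lie above it as below it. *Dbp* was 4.37 times higher in replicate 1 than in replicate 3 (95% exact interval 2.04 to 10.7, counting error only), and 0.762% of all tested genes differed as much or more in either direction. *Per2* was 2.79 times higher (interval 1.81 to 4.45), a difference that 2.96% of genes reached, and *Per1* 1.75 times higher (interval 1.23 to 2.53, 15.4% of genes). *Clock*, *Per3*, *Nr1d1*, *Nr1d2*, *Tef*, *Arntl* and *Cry1* had ratios between 0.622 and 1.12 with intervals that included 1. The interval thus excluded 1 for *Dbp*, *Per2* and *Per1* among the 10 genes. The share of all tested genes with such an interval was not counted, so this describes that pair of libraries only.

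The other genes of the clock pathway were taken from lists drawn up by function. Of 12 further transcriptional regulators, 10 could be tested, 5 with positive and 5 with negative log2 fold changes, and 0 passed the thresholds (edgeR, 0 with an unadjusted p under 0.05, and 0 with DESeq2). Their median log2 fold change was 0.015. Of 12 genes of clock kinases, a phosphatase and the ubiquitin machinery, 11 could be tested and 0 passed (edgeR, 0 with an unadjusted p under 0.05, and 0 with DESeq2), with a median of −0.0015. With all genes of at least 1 count, *Bhlhe41*, *Ciart* and *Ppp1cb* passed the thresholds (2.28% of all genes did). With the replicate block, *Bhlhe41* and *Ppp1cb* passed (2.49% of all genes did). *Ciart* passed without KIKO replicate 1, as did 111 genes in all. *Ppp1cb* passed without KIKO replicate 3, as did 1.17% of all genes.

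Among the regulators, the repressors *Ciart* and *Bhlhe41* had their highest level in KIKO replicate 2, as did 33.9% of all tested genes. *Ciart* (chromosome 3, 95878503 to 95882251), which encodes a repressor of ARNTL and CLOCK, had 3.98 and 8.34 CPM in WT and 3.15, 49.5 and 14.2 CPM in KIKO libraries. With KIKO replicate 2, the fitted log2 fold change was 1.82 (standard error 1.09, edgeR adjusted p = 1), and without it *Ciart* did not pass the filter on low counts. Since *Ciart* was among the tested genes only with the library in which it was high, its fold change and its place among them are no evidence of a difference. *Bhlhe41* (chromosome 6, 145858243 to 145865558), which encodes the E-box repressor DEC2, had 49.8 and 94.0 CPM in WT and 65.5, 318 and 54.8 CPM in KIKO libraries, and its log2 fold change was 1.02 with KIKO replicate 2 and −0.27 without it. By its excess in KIKO replicate 2, *Bhlhe41* was the 144th highest of the 10889 genes. It was at 4.68 times the other libraries (95% exact interval 4.03 to 5.44, counting error only). Its relative *Bhlhe40* (DEC1) was lowest in that library, with 69.7 and 75.1 CPM in WT and 56.8, 25.5 and 59.9 CPM in KIKO libraries, with a log2 fold change of −0.61 (standard error 0.46, edgeR adjusted p = 1) and of −0.32 without KIKO replicate 2.

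The promoter of *Ciart* is shown because it holds the most E-boxes of the clock pathway windows searched, at chr3:95882267-95882272, chr3:95882281-95882286 and chr3:95882339-95882344 of the RefSeq window chr3:95882179-95882478 (minus strand, GRCm38.p6), in capitals:
Ciart promoter: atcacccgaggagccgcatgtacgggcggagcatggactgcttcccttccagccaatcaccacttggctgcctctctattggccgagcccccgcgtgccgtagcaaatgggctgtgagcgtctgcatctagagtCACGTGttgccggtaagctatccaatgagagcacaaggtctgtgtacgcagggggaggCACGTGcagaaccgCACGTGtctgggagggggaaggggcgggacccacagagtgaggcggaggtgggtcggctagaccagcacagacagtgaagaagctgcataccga
A match of letters is a description of the window and not evidence of binding.

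*Cry2*, the second cryptochrome gene, had 120 and 87.2 CPM in WT and 82.0, 63.4 and 93.4 CPM in KIKO libraries, at a log2 fold change of −0.38 (standard error 0.37). *Nfil3*, whose product represses through the D-box, had 15.9 and 14.4 CPM in WT and 9.46, 27.0 and 10.1 CPM in KIKO libraries, and its log2 fold change was 0.044 with KIKO replicate 2 and −0.63 without it. *Hlf*, the third PAR bZIP gene beside *Dbp* and *Tef*, had 41.8 and 39.4 CPM in WT and 29.2, 44.0 and 47.7 CPM in KIKO libraries, at a log2 fold change of −0.013 (standard error 0.43). *Npas2*, which can stand in for *Clock*, had at most 5 counts in any library and did not pass the filter on low counts. With all genes of at least 1 count, its log2 fold change was −2.44 (standard error 2.45, edgeR adjusted p = 1). The edgeR adjusted p was 1 for *Cry2*, *Nfil3* and *Hlf*.

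**Figure D5:**
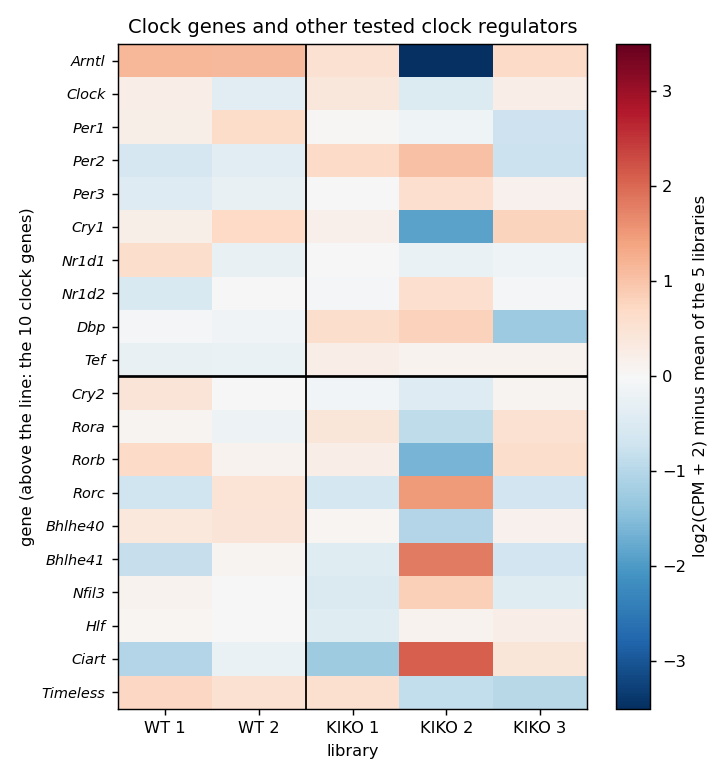
Log2(CPM + 2) minus the mean of the 5 libraries (colour) for the 10 clock genes, above the black line, and the 10 other transcriptional regulators tested (rows) in each library (columns). The deepest colour is that of *Arntl* in KIKO replicate 2, −3.48, the library in which *Ciart* and *Bhlhe41* reach their highest level.

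Genes of signals that reach the clock were examined beside *Per1* and *Per2*. Of 10 immediate-early genes, which are induced by activity and by cell dissociation, *Fosb* passed the thresholds, as did 1.20% of all genes tested. *Fosb* was lower in KIKO libraries. It had 299.8 and 295 CPM in WT and 162, 162 and 120 CPM in KIKO libraries, at a log2 fold change of −1.01 (standard error 0.35, edgeR unadjusted p = 0.0187, adjusted p = 1). It no longer passed with the replicate block or without any 1 library other than KIKO replicate 2. The 10 genes summed to 3320 and 4649 CPM in WT and to 2805, 5812 and 2205 CPM in KIKO libraries, with a median log2 fold change of 0.042. *Per1* had its lowest level in KIKO replicate 3, which also had the lowest sum, but not its highest in KIKO replicate 2, which had the highest. Of 9 glucocorticoid-responsive genes, 8 could be tested and 0 passed (edgeR, and 0 had an unadjusted p under 0.05), with 7 positive log2 fold changes and a median of 0.24. Over all 10889 genes tested, 5648 were positive, with a median of 0.022. KIKO replicate 2 was the highest library for 6 of the 8 genes, against 33.9% of all genes tested. Of 6 temperature-responsive genes, 5 could be tested and 0 passed (edgeR, and 0 had an unadjusted p under 0.05), with a median of −0.11. The sums of both lists were also highest in KIKO replicate 2, at 1912 CPM against 901 to 1614 CPM and at 10267 CPM against 3703 to 8171 CPM in the other libraries. The part of these signals in the levels of the clock genes was not tested.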

How the data were processed

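RNA was measured in 2 WT and 3 KIKO cerebellar libraries. The authors trimmed reads with Trimmomatic, mapped them to mm10 with HISAT2 and assigned them to genes with featureCounts. They deposited whole-number counts per gene, and log2 values of the counts after division by DESeq2 size factors, to which 1 was added. Both tables hold 2 more columns of per-sample values, named for butyrate, that match no sample label and were not used. Gene annotation, strand setting and handling of multiply mapped reads are not given in the sources used here.

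Symbols came from GENCODE M21 (GRCm38, that is mm10) for 30934 of 31053 identifiers. The counts were fitted for all genes in edgeR 4.0.16 (R 4.3.3) with filterByExpr (minimum count 10, minimum total 15), TMM factors and the quasi-likelihood test, two-sided, with Benjamini-Hochberg adjustment over the 10889 genes tested. Genes passed at an absolute log2 fold change over 0.75 with an unadjusted p below 0.05. Standard errors are the log2 fold change divided by the root of the F statistic. Whether samples of a group came from separate mice is not stated in the labels. The p-values weigh the difference between the groups against the spread between these samples, which is estimated with the help of all genes. The test was checked on simulated data.

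The 10 genes, the lists and the thresholds were chosen with earlier results of these data known. The genes named were all 10 members, the overlapping genes, *Npas2*, *Cry2*, *Bhlhe40*, *Bhlhe41*, *Nfil3*, *Hlf* and *Ciart*, list members past the thresholds and, for the 3 members with most counts, their nearest genes. *Ppp1cb* was named after its values were seen. Some genes are not reported here. Alternatives were RLE factors, library size alone, DESeq2 1.42.0, looser and stricter filters, limma 3.58.1 with trend on the deposited log2 values or with voom sample quality weights, leaving out each library, and the replicate number as a block. Leaving out a WT library left 1 in that group, which was taken to vary like the KIKO libraries. The recounts of genes without overlap between the groups were added after seeing the data. Promoter windows and their sequences are those of RefSeq on GRCm38.p6, found for 9 of the 10 genes.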

Additional observations from a re-analysis of the deposited data

How the results depend on the processing

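The number of clock genes past the thresholds was 0 in the reported fit and with RLE factors, library size alone, DESeq2, at least 10 counts in every library, limma with trend and quality weights. It was 1 (*Arntl*) with all genes of at least 1 count, 2 (*Arntl* and *Per2*) with the replicate block, and 0 to 1 when each library was left out in turn (*Per2* without KIKO replicate 3). With at least 10 counts in every library, *Arntl*, *Cry1* and *Dbp* could not be tested. The other clock pathway genes past the thresholds were 0 in the reported fit, 3 with all genes of at least 1 count, 2 with the block and 0 to 1 with a library left out. Over all genes, the 131 that passed became 383 with all genes of at least 1 count, 271 with the block, 519 with quality weights and 56 to 669 with a library left out (56 without WT replicate 1, 669 without KIKO replicate 2). Genes with an adjusted p under 0.05 were 0 in the reported fit (edgeR, 131 with an unadjusted p under 0.05, and 0 with DESeq2), 1 with all genes of at least 1 count and 0 to 5 with a library left out. Of the 10 genes of the clock, 4 had no overlap between the groups with every library, and 4 to 7 with a KIKO library left out. Over all genes tested, this share was 16.7% with every library. It was 38.5% without KIKO replicate 2 and 27.9% without KIKO replicate 3. The log2 fold change changed sign for *Dbp* (−0.046) and *Bhlhe41* (−0.11) with quality weights, for *Nfil3* with limma with trend (−0.11) and with quality weights (−0.55), and for *Hlf* with library size alone (0.038). With a library left out, it ranged from −0.15 to 0.47 for *Clock*, −1.17 to 0.012 for *Cry1*, −0.81 to 0.13 for *Nr1d1*, −0.27 to 1.52 for *Bhlhe41*, −0.63 to 0.31 for *Nfil3* and −0.15 to 0.18 for *Hlf*. The other 118 values of the clock genes under these alternatives kept their direction and their side of the thresholds, and 4 kept their direction and newly passed. What caused these differences was not tested. Same-numbered libraries deviated from their group means with r = 0.184 (number 1) and r = 0.243 (number 2) across genes, and KIKO replicate 3 has no partner, so the block rests on a shared number only.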

Other observations

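For the 3 clock genes with most counts, the genes with the most similar profile over the 5 libraries were sought by the root mean square difference of log2(CPM + 2) after each gene was centred on its own mean. For *Tef* these were *Pip5k1c* (difference 0.02) and *Acrbp* (0.04), for *Clock* *Selenom* (0.04) and *Syt7* (0.05), and for *Per3* *Trim12a* (0.06) and *Rtn3* (0.07), out of 10888 genes ranked for each. Among the clock genes themselves, *Nr1d2* ranked 131st by likeness to *Per3* (0.16) and *Tef* 599th (0.25), while *Arntl* ranked 10856th (2.07). By likeness to *Tef*, *Per3* ranked 844th and *Arntl* 10857th, and by likeness to *Clock*, *Nr1d1* ranked 1545th, *Tef* 1986th and *Arntl* 10804th. *Arntl* was thus among the genes least like each of the 3. This was given in advance by its value in KIKO replicate 2, the farthest from its own mean, since the profiles were not scaled to equal spread.

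*Gfap*, an astrocyte marker, was the 1 gene of the cell type lists past the thresholds, where 1.20% of all genes tested passed. *Gfap* had 19.9 and 9.86 CPM in WT and 30.0, 44.8 and 36.5 CPM in KIKO libraries, at a log2 fold change of 1.33 (standard error 0.55, edgeR adjusted p = 1). It did not pass with the replicate block or without WT replicate 2, KIKO replicate 1 or KIKO replicate 3.

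Apart from *Gfap*, markers of the cell types searched gave 0 genes past the thresholds. The 5 Purkinje neuron markers summed to 266 to 593 CPM, the 6 of astrocytes to 579 to 1272 CPM, the 5 of endothelium to 389 to 831 CPM, the 5 of mural cells to 185 to 345 CPM, the 4 of fibroblasts to 61.4 to 99.7 CPM, the 4 of monocytes and neutrophils to 16.9 to 92.3 CPM and the 5 of red blood cells to 1031 to 2920 CPM over the libraries.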
